A study of Ovis aries with 20 samples.

Results

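NFIL3, also known as E4BP4, encodes a repressor of transcription of the basic leucine zipper (bZIP) family, and it was followed here in the hearts of newborn lambs. It is 1 gene, read by 1 probe with 1 spot per array, among 15008 probes of a sheep expression array of which 1667 (11.1%) could be named, for 1015 genes. The probe was chosen by its difference between cortisol and control lambs in the left ventricle (LV), seen in earlier results of these data, so that difference is described below and not tested. The array design describes the probe's transcript as a partial match to the cattle nuclear factor interleukin-3-regulated protein, and the name NFIL3 rests on that description alone.

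NFIL3 binds the same D-box element of promoters as the activators DBP, TEF and HLF of the circadian clock, and represses where they activate. It is also known from lymphocytes, where it is needed for natural killer cells, and as a gene that glucocorticoids raise in lymphoid cells. Cortisol, the main adrenal glucocorticoid of sheep, acts through the receptors encoded by NR3C1 and NR3C2.

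The 20 arrays were of the LV and the interventricular septum of singleton newborn lambs, in 4 groups of 5. LV and septum arrays that shared a treatment and a number were taken as 1 lamb, which makes 10 lambs. The labels do not state this pairing, which was inferred from the arrays as given under the processing. In the cortisol group the ewe had been infused with cortisol at 1 mg/kg per day, and in the control group with vehicle, in both from about gestation day 115 until birth. The labels call the lambs telemetry newborns, and they were euthanized between 10 and 480 min after birth. The time of each lamb was not used here, since the labels give only the range, and the treatment was given to the mother, not to the lamb. RNA was taken from pieces of whole heart wall, so fewer cells of a type and less RNA per cell cannot be told apart. Of 17 heart muscle markers, 3 were measured (MYH7, TPM1 and MB), and each was well above background on all arrays where its spots were kept. The arrays lay on 4 slides, 57.9% to 72.1% of spots were well above background, and the 75th percentile of the processed signal, to which each array was scaled, ran from 99.2 to 441 intensity units. Slides 1 and 3 held 3 control and 3 cortisol arrays each, of septum and of LV. Slide 2 held the other 4 septum arrays (2 of each treatment) and 2 control and 1 cortisol LV arrays, and slide 4 the LV array of cortisol 4.

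The end of the probe is shown because it says which stretch of the transcript the signal reports. The probe has 60 bases and begins at base 1394 of its consensus transcript, and bases 31 to 60 read, 5′ to 3′, with the letters of the common polyadenylation signal in capitals:
NFIL3 probe: accagtttcAATAAAggattggtgacaacc
The letters AATAAA were searched on both strands of the 15008 probes. They occurred as printed in 5.63%, on the other strand in 3.70% and on either in 9.14%, which describes the probes and marks no site. With 36.7% G and C, the NFIL3 probe lay below the median of 43.3% of all probes. No genome position is given, because the files list the probe as unmapped.

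NFIL3 was a dim probe in LV of control lambs and brighter after cortisol. In control LV the processed signal was 4.91, 28.5, 8.42, 5.67 and 18.3 intensity units in lambs 1 to 5. The arrays of control 1 and control 4 were not well above background there, so 3 of 5 arrays measured the gene. In cortisol LV the signal was 13.7, 24.1, 44.8, 107 and 44.4 units in lambs 1 to 5, well above background on 5 of 5. Scaled to the 75th percentile, the log2 level was -4.39, -2.79, -3.93, -5.55 and -3.71 in the control lambs and -2.87, -2.19, -1.15, -1.91 and -2.61 in the cortisol lambs. Cortisol 3 was highest, control 4 lowest, and the groups overlapped only through control 2, which lay above cortisol 1. The log2 means were -4.07 ± 1.01 and -2.15 ± 0.67 (SD, n = 5 each), a difference of 1.93 ± 0.48 (SE), or 3.81-fold. Since the probe was chosen for this value, it carries no p. In LV, 0% of the 9791 probes passed limma at an adjusted p under 0.05 (508 had an unadjusted p under 0.05).

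The size of the LV difference varied with the treatment of low signals. Raising the low values to the array's lowest signal well above background gave 1.79, and the authors' deposited table, fitted in the same way, gave 1.35 ± 0.35. With normexp background correction it was 1.40 ± 0.35 when no offset was added, an alternative chosen after seeing the data, and 0.57 ± 0.23 with an offset of 50 intensity units. On slide 3 alone it was 2.17 ± 0.73, and on slide 2 alone, with 1 cortisol array that is assumed to vary like the others, 1.21 ± 0.29.

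**Figure D1:**
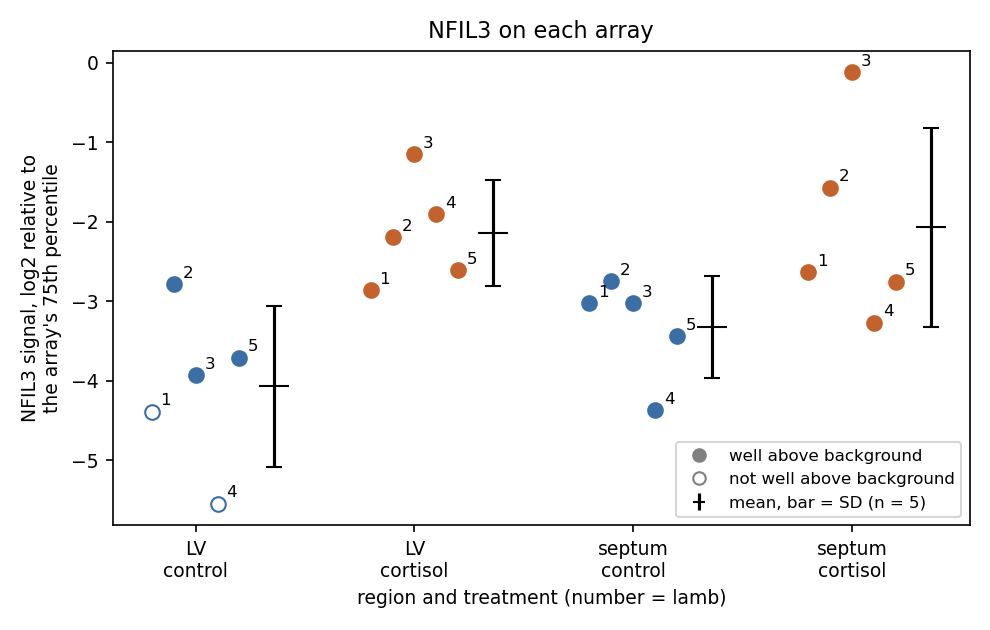
NFIL3 on each of the 20 arrays, as log2 of the processed signal relative to the array's 75th percentile (vertical axis), by region and treatment (horizontal axis). Each point is 1 array with its lamb number, open points were not well above background, and the bars are the mean and SD of 5 arrays. The LV control mean is -4.07 and the LV cortisol mean -2.15, and cortisol 3 is the highest point in both regions.

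In septum, whose arrays were not used in choosing the probe, NFIL3 was again higher on average after cortisol but did not pass the test. The signal was 32.6, 65.7, 34.6, 15.4 and 25.5 units in control lambs 1 to 5 and 28.4, 102, 142, 26.5 and 43.1 units in cortisol lambs 1 to 5, well above background on all 10 arrays. On the log2 scale the control lambs stood at -3.02, -2.75, -3.03, -4.38 and -3.44 and the cortisol lambs at -2.64, -1.57, -0.12, -3.27 and -2.76. Cortisol 1, 2 and 3 lay above every control lamb, while cortisol 4 lay below 3 control lambs and cortisol 5 just below control 2. The means were -3.32 ± 0.64 and -2.07 ± 1.25 (SD, n = 5 each), a difference of 1.25 ± 0.55 (SE), 2.38-fold, with a 95% interval of 0.04 to 2.46 before any adjustment. In limma the adjusted p was 0.818 over 10369 probes, and the two-sided exact permutation test of the single value over lambs gave p = 0.0714, where 252 splits allow no less than 0.00794. The control mean was exceeded on 5 of 5 cortisol arrays, as it was for 4.90% of probes. In septum 0% of probes passed, with 385 at an unadjusted p under 0.05. The lambs were taken to be the same as in LV, so the septum value is not an independent sample of animals.

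The septum difference was not alike on the slides. Slide 1, with controls 1, 2 and 4 and cortisol lambs 1, 2 and 3, gave 1.94 ± 0.69 (limma adjusted p = 0.271), and slide 2, with controls 3 and 5 and cortisol lambs 4 and 5, gave 0.22 ± 0.30 (adjusted p = 0.998). The difference between slides was not tested. Without cortisol 3 the septum difference was 0.76 ± 0.40.

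The difference of the cortisol effect between the regions, septum minus LV, was -0.68 ± 0.77, or ± 0.43 with lamb as a block. It holds the LV value that chose the probe and was not tested, and with normexp background it was 0.02. By mean level the groups followed in the order LV control, septum control, LV cortisol and septum cortisol. LV control and septum control, 0.75 apart, and LV cortisol and septum cortisol, 0.07 apart, differed by less than the larger SD within them. Septum control and LV cortisol were 1.18 apart, more than either SD, with 1 of 5 LV cortisol arrays below the highest septum control array. This overlap was not counted for other probes. The gap mixes region with treatment and holds LV values that chose the probe, so it was not tested.

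Averaged over the treatments, NFIL3 did not pass between septum and LV. The log2 difference was 0.41 ± 0.39 (SE), with an adjusted p of 0.728 in limma when the arrays were taken as independent and ± 0.21 with an adjusted p of 0.193 when lamb was a block. Septum was higher in 5 of 5 control lambs, by 0.04 to 1.37, and in 3 of 5 cortisol lambs, where septum minus LV was -1.36 in cortisol 4 and -0.14 in cortisol 5. The largest gaps of the control lambs, 1.37 in control 1 and 1.17 in control 4, came from LV arrays not well above background. The share of probes with septum higher in all control lambs was not counted. Over both treatments septum was higher in 8 of 10 lambs, and as many or more were seen for 23.7% of 10069 probes. Of those probes 0.397% passed between the regions, and 18.4% with lamb as a block. Region and slide were largely confounded, and with slide as a block the difference was -0.02 ± 0.69.

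The 2 regions of a lamb tended to deviate together. Deviations from the group mean had a Pearson r of 0.669 over the 10 lambs (two-sided exact permutation of septum values within treatment, p = 0.0214, 14400 orders) and a Spearman rho of 0.576 (exact permutation p = 0.0957). The permutation did not account for slide, and lambs whose LV arrays shared a slide also shared one in septum. The pairing of arrays into lambs was itself inferred from correlation over the probes of these arrays, with slide left in. This agreement of the regions was the only relation across lambs that was tested. Cortisol 3 was 1.00 above its group in LV and 1.95 above in septum, control 2 was 1.29 and 0.58 above, and control 4 was -1.48 and -1.05 from its group. The LV array of control 4 was not well above background, nor was that of control 1. Cortisol 4 went the other way, at 0.24 in LV and -1.20 in septum, and 6 of 10 lambs deviated with the same sign in both regions.

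The relation rested on the lambs at the ends. Without control 4 and cortisol 3, the lambs farthest from the LV median, r was 0.104 (exact permutation p = 0.795), without control 4 alone 0.578 (p = 0.126, exact permutation) and without cortisol 3 alone 0.558 (p = 0.141, exact permutation). With normexp background it was 0.028 with the offset (exact permutation p = 0.941) and -0.28 without it (exact permutation p = 0.443). The same correlation over lambs had a median of 0.723 across 9929 probes, with quartiles of 0.470 and 0.862, and 42.6% of probes lay below NFIL3, so NFIL3 stood near the middle of the probes.

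**Figure D2:**
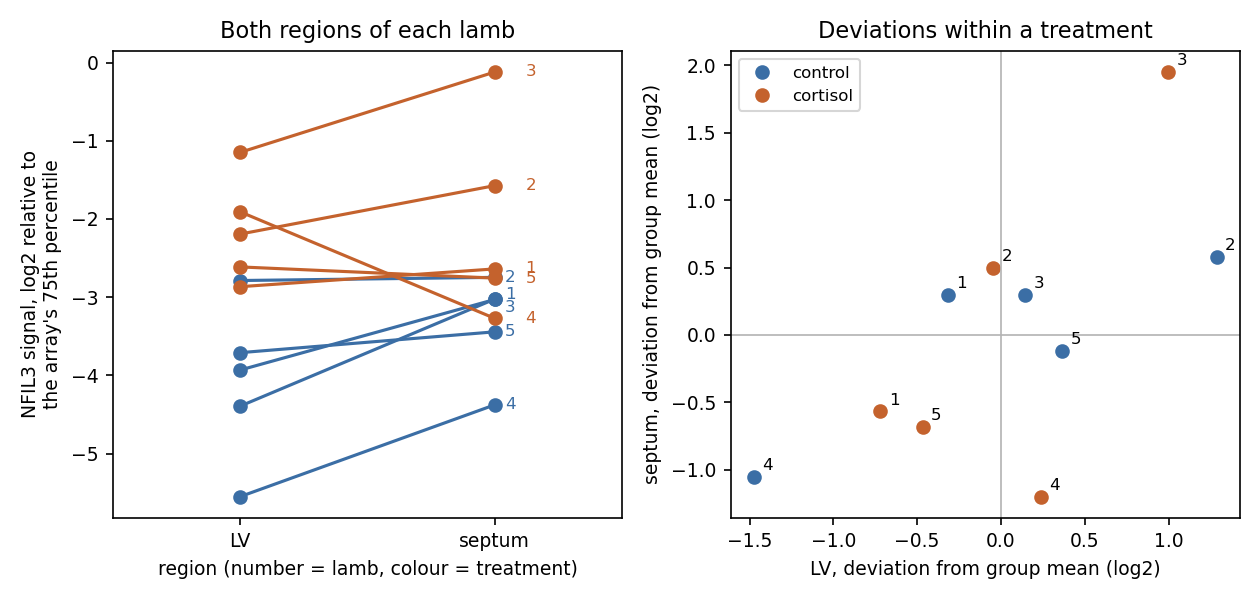
Left, the NFIL3 level in LV and septum of each lamb (log2 relative to the 75th percentile), joined by a line, with the lamb number and blue for control and orange for cortisol lambs. Right, each lamb's deviation from its group mean in LV (horizontal) and septum (vertical), in log2 units, with cortisol 3 at the upper right (1.00 and 1.95) and control 4 at the lower left (-1.48 and -1.05).

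Likeness to NFIL3 was measured as Pearson r over the 20 arrays after each region's mean was removed, for 10064 probes well above background on at least 10 arrays. These r are a description, since the arrays share lambs, slides and scaling. The median was 0.01 with quartiles of -0.33 and 0.33, and 23 probes reached 0.8, of which 6 have a name. Of the 10 named genes with the highest r, 9 are given here, SMAD2, BMP6, AQP1, JAG1, BCL2L1, JUNB, ETS2, ZFP36 and HK1, at 0.72 to 0.88, and the 5 with the lowest were TIE1, ATP6V1B2, COX5A, INHA and H2AZ1, at -0.81 to -0.70. Only 632 named genes could be compared, and 124 probes stood above the last of the 10.

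SMAD2, the intracellular transducer of TGF-beta and activin signals, ranked 3 among all probes with r = 0.88. Its log2 level lay between -2.46 and -1.57 in control LV, -1.80 and -1.22 in cortisol LV, -2.49 and -1.81 in control septum and -2.28 and -0.95 in cortisol septum. It was highest in the septum of cortisol 3 and lowest in the septum of control 4, the lambs at the ends of the NFIL3 range too. SMAD2 kept an r of 0.84 after the group means were removed and of 0.82 without cortisol 3. Its cortisol difference was 0.46 ± 0.23 in LV and 0.52 ± 0.27 in septum (SE, n = 5 per group), which did not pass.

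The other ligand and signalling genes of the high end were BMP6, a bone morphogenetic protein (r = 0.83), and JAG1, a ligand of Notch receptors (0.76). Both had second probes with r of 0.70 or more. AQP1, the water channel of endothelium and red cells, had an r of 0.82 and its second probe 0.83. BCL2L1, which blocks apoptosis (0.75, second probe 0.64), and HK1, the first enzyme of glycolysis (0.72), were further members outside the early-response genes. Once group means were removed, the 9 genes lay between 0.64 and 0.84.

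JUNB, ETS2 and ZFP36 respond early to stimuli in many cells, JUNB and ETS2 as transcription factors and ZFP36 as an RNA-binding protein that speeds mRNA decay. Their r of 0.74, 0.73 and 0.72 came to 0.47, 0.46 and 0.45 without cortisol 3. A second probe had an r of 0.75 for JUNB and 0.52 for ZFP36. JUNB stood at 1.75 in LV and 1.59 in septum of that lamb, while the other 18 arrays lay between -3.18 and -0.66. The same lamb held the highest ZFP36 (4.33 in LV, 3.77 in septum) and ETS2 (2.22 and 2.42).

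Among the genes at the low end, TIE1, a receptor of endothelial cells, was lower on arrays where NFIL3 was higher, with r = -0.81 and its second probe at -0.80, though its r was 0.46 with normexp background. The other measured endothelial genes, PECAM1, KDR and TEK, went the other way, with r of 0.27, 0.37 and 0.27. TIE1 was lowest in cortisol 3, at -3.22 in LV and -3.93 in septum, and highest in control 4, at -1.24 and -1.38. Its level on the other 16 arrays lay between -2.85 and -1.75. ATP6V1B2, a subunit of the vacuolar proton pump, had an r of -0.76, COX5A, of cytochrome c oxidase, -0.72, INHA, the inhibin alpha subunit, -0.70, and H2AZ1, a histone variant, -0.70. Without cortisol 3 the 5 lay between -0.65 and -0.40.

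Cortisol 3 carried much of the pattern. Without it 8 probes reached an r of 0.8, and 4 of the 10 highest and 1 of the 5 lowest named genes remained at their end. SMAD2, AQP1 and BMP6 were among those that remained at the top, beside CHID1, MYL11, C5AR1, DTNBP1, PLPP1 and TPM1, named after their values were seen. Leaving out cortisol 4 gave 99 such probes. With normexp background 1154 probes reached 0.8 (110 without its offset), and the r of HK1, TIE1 and COX5A changed sign under that setting, to -0.34, 0.46 and 0.37 (-0.24, 0.07 and 0.01 without the offset). The r of NFIL3 itself with the array's 75th percentile was -0.25 and with the share of spots well above background -0.31.

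**Figure D3:**
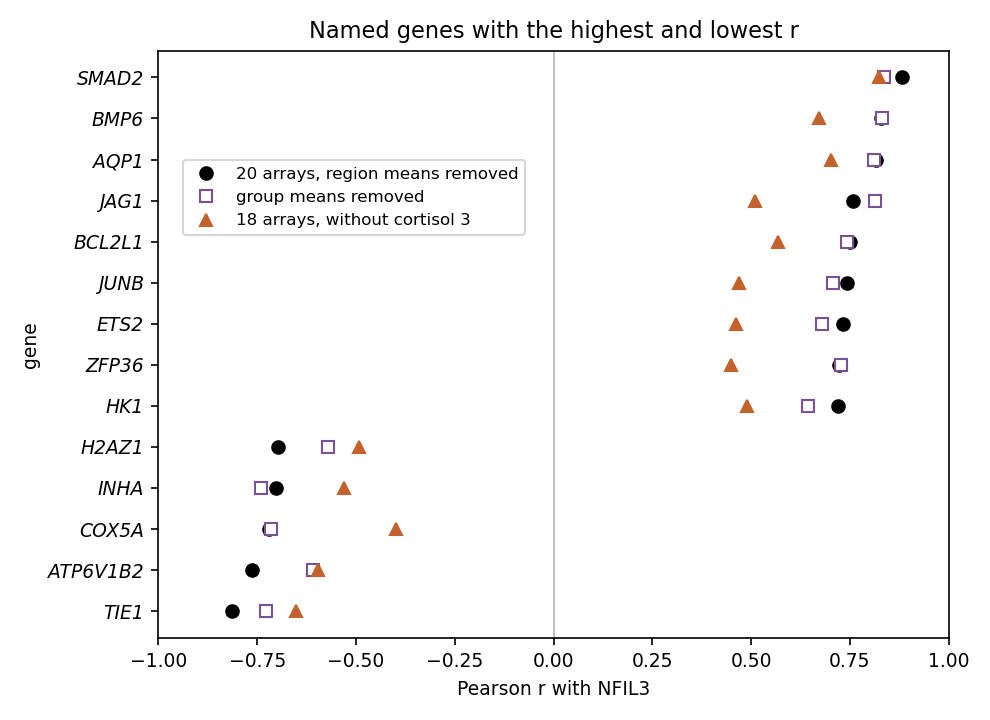
Pearson r with NFIL3 (horizontal axis) for 9 of the 10 named genes with the highest and the 5 with the lowest values (vertical axis), over 20 arrays with region means removed (black circles), with group means removed (open squares) and over 18 arrays without the lamb cortisol 3 (orange triangles). SMAD2 stays above 0.8 under each of these 3, while JUNB, ETS2 and ZFP36 drop to between 0.45 and 0.47 without that lamb.

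**Figure D4:**
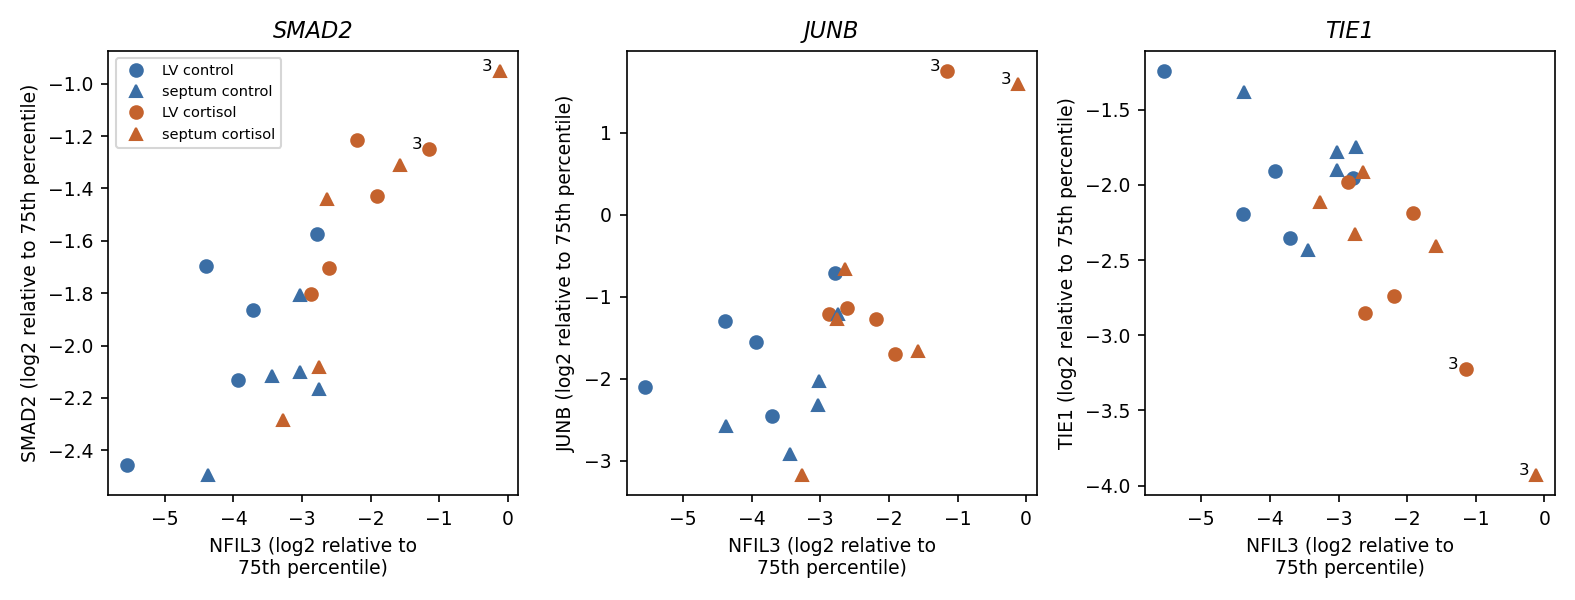
SMAD2, JUNB and TIE1 (vertical axes) against NFIL3 (horizontal axes), each as log2 relative to the array's 75th percentile with no mean removed, 1 point per array, circles for LV, triangles for septum, blue for control and orange for cortisol. The arrays of cortisol 3 are marked 3, and in the JUNB panel they stand apart at 1.75 and 1.59.

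The clock genes had cortisol differences of both signs, and the group as a whole was not tested. Of 25 clock genes 10 were on the array under a name and 8 were measured. None of the 8 passed limma in either region (lowest adjusted p 0.877 in LV and 0.818 in septum). Of them 1, PER2, had an unadjusted p under 0.05 in LV, as had 508 of 9791 LV probes. In septum 0 had, against 385 of 10369 probes. In LV 5 of 8 were positive with a median log2 difference of 0.08, and in septum 6 of 8 with a median of 0.17. Over all probes tested, the median was -0.01 in LV (49.1% positive) and 0.03 in septum (54.7% positive).

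DBP, the D-box activator that competes with NFIL3, had a difference of 0.01 ± 0.33 in LV and -0.14 ± 0.27 in septum, and an r of -0.25 with NFIL3. BMAL1 and CLOCK form the activator of the clock. BMAL1 stood at -0.26 ± 0.31 in LV and -0.06 ± 0.26 in septum, and CLOCK at 0.31 ± 0.26 and 0.44 ± 0.30. Of the repressors of that pair, PER2 was at 0.64 ± 0.28 in LV and 0.19 ± 0.20 in septum, and CRY1 at -0.25 ± 0.33 and 0.37 ± 0.23. BHLHE40, another repressor, was at 0.27 ± 0.67 and 0.39 ± 0.68, and was -0.28 in LV and -0.16 in septum without cortisol 3. CSNK1D (-0.01 ± 0.35 in LV, 0.09 ± 0.28 in septum) and CSNK1E (0.15 ± 0.24 and 0.16 ± 0.19) encode the kinases that mark PER proteins for decay. CSNK1E had the highest r with NFIL3 of the 8, 0.61, ahead of CLOCK at 0.51, though a second CSNK1E probe had 0.38. The median r of the 8 was 0.35 against 0.01 over all probes. Without cortisol 3 CSNK1E kept 0.61 while CLOCK stood at 0.21, and the median of the 8 was 0.03 against 0.01 over all probes.

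Other bZIP factors were measured for 10 of 38 genes, and none passed in either region (0 with an unadjusted p under 0.05). In LV 6 of 10 were positive, median 0.11, and in septum 8 of 10, median 0.26, against 49.1% and 54.7% of all probes. FOS, the partner of JUN in AP-1, had the largest differences of the list, 1.67 ± 1.20 in LV and 1.47 ± 1.31 in septum, with large errors. In cortisol 3 it stood at 2.43 in LV and 2.70 in septum, and in cortisol 5 at 1.33 and 1.30. The other cortisol lambs lay between -3.06 and -0.84. Control lambs were split too, with control 2 at 0.18 and 0.92 and control 3 at -0.49 and 0.04. The other control lambs lay between -4.39 and -2.93. JUNB was next, at 0.91 ± 0.60 and 1.18 ± 0.73. Without cortisol 3 FOS stood at 0.89 in LV and 0.67 in septum, and JUNB at 0.30 and 0.52. JUN was at 0.27 ± 0.30 and 0.37 ± 0.24. JUND (0.14 ± 0.37 and 0.23 ± 0.42), ATF6 (0.38 ± 0.27 and 0.40 ± 0.25), XBP1 (0.08 ± 0.27 and 0.24 ± 0.26) and CEBPB (-0.08 ± 0.28 and 0.27 ± 0.32) had smaller values. The negative ones in LV, beside CEBPB, were ATF4 (-0.34 ± 0.20, and -0.28 ± 0.24 in septum), CREM (-0.40 ± 0.70 and -0.38 ± 0.66) and DDIT3 (-0.42 ± 0.39, and 0.02 ± 0.36 in septum).

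ATF4 and DDIT3 are effectors of the integrated stress response, and their r with NFIL3 were -0.46 and -0.09. Of 18 further genes of the unfolded protein and integrated stress responses 2 were measured. HSPA5, the main chaperone of the endoplasmic reticulum, stood at 0.02 ± 0.41 in LV and 0.41 ± 0.44 in septum, and PDIA4, a disulfide isomerase, at 0.16 ± 0.27 and 0.25 ± 0.26, with r of 0.39 and 0.47. Neither passed.

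Genes of corticosteroid action were measured for 8 of 25, and none passed in limma. Of these, 1, NR3C1, had an unadjusted p under 0.05 in LV, as had 508 of 9791 LV probes, and 0 in septum. PCK1 could be tested in septum only. In LV 7 of 8 were positive, median 0.50, and in septum 7 of 9, median 0.25, against 49.1% and 54.7% of all probes. Some LV differences leaned on 1 lamb. MT3 stood at 1.30, and at 0.42 without cortisol 4. RGS2 stood at 0.44 and CDKN1C at 0.55, and at 0.12 and 0.24 without cortisol 3. NR3C1 stood at 0.66, and at 0.53 or more without any 1 lamb. In septum NR3C1 stood at 0.31 ± 0.35, and at 0.04 without cortisol 3. MT3, RGS2 and CDKN1C stood at 0.62, 0.48 and 0.25 in septum. HSD11B2 stood at 0.98 ± 0.53 in LV and 0.20 ± 0.78 in septum. HSD11B1 was negative in both regions, at -0.26 ± 0.34 in LV and -0.575 ± 0.34 in septum. The r with NFIL3 was 0.59 for the glucocorticoid receptor NR3C1 and 0.01 for the mineralocorticoid receptor NR3C2. RGS2, a regulator of G protein signalling that glucocorticoids raise in several cells, had the highest r of the list, 0.68, with further probes at 0.79 and 0.78, followed by the cell cycle inhibitor CDKN1C at 0.62. Without cortisol 3 these 3 genes came to 0.31, 0.41 and 0.44, in the order NR3C1, RGS2 and CDKN1C. MT3, a metallothionein, had an r of 0.45, the chaperone HSP90AA1 of 0.42, HSD11B1, which regenerates active cortisol, of -0.06, and HSD11B2, which inactivates it, of -0.12.

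**Figure D5:**
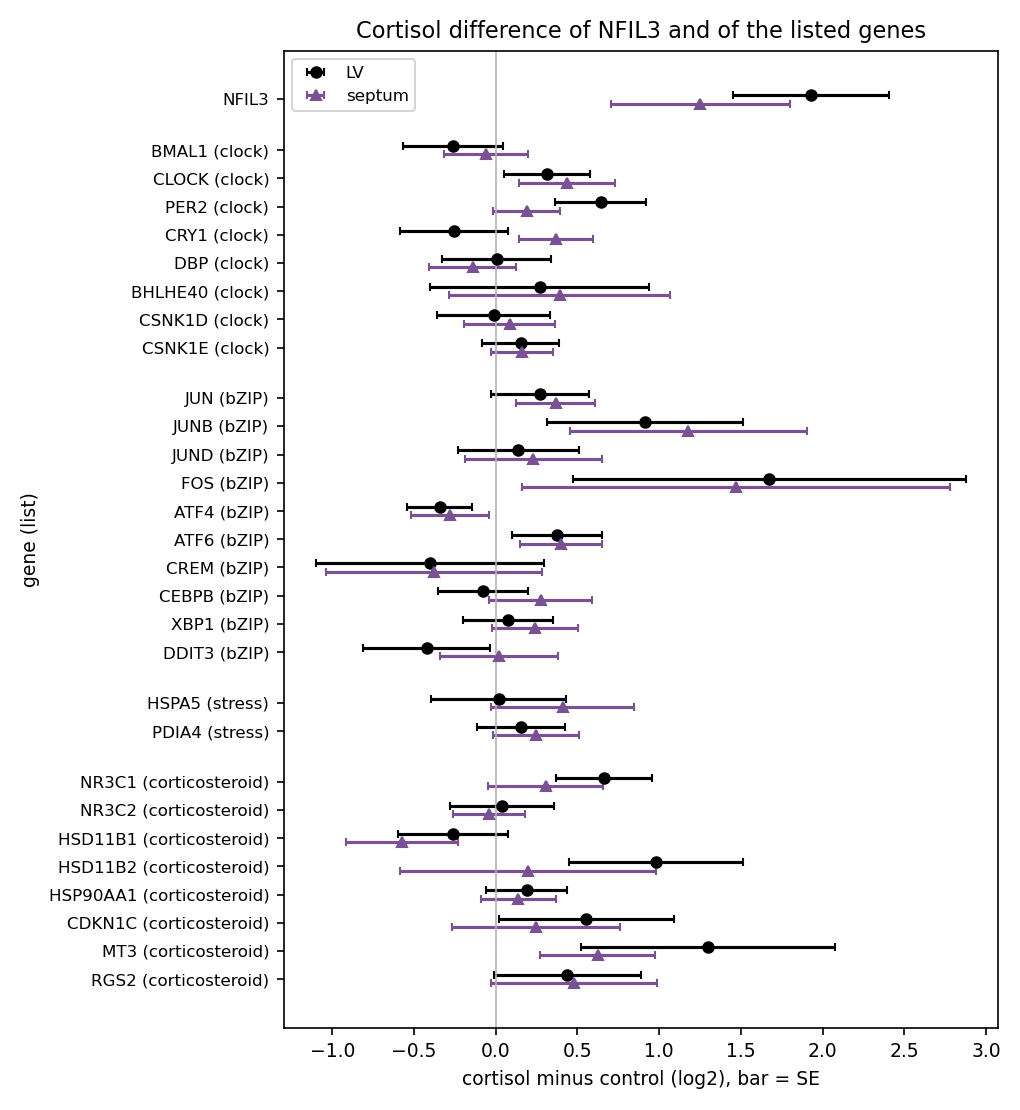
Cortisol minus control difference in log2 (horizontal axis) with its SE, in LV (black circles) and septum (purple triangles), for NFIL3 and the 28 measured genes of the clock, bZIP, stress and corticosteroid lists (vertical axis). NFIL3 has 1.93 and 1.25, FOS has 1.67 and 1.47 with SE of 1.20 and 1.31, and most clock genes lie within 0.5 of 0.

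Between the regions, 0 of these 28 genes passed without the lamb block (limma), where the background was 0.397%, and 8 of 28 with it, against a background of 18.4%. The 8 were BHLHE40, JUND, CREM, CEBPB, HSPA5 and HSD11B2, lower in septum, and NR3C1 and NR3C2, higher in septum as 8.86% of probes were. HSD11B2 was not well above background on every array, as given above. Slide was confounded with region here as for NFIL3.

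Markers of other cells were set beside NFIL3, each as the list's mean log2 level per array relative to each gene's own mean. Myeloid markers, 4 of 9 measured (CD14, TYROBP, CD86 and LYZ), had an r of 0.67 with NFIL3 over the arrays. Their level was -0.76 to 0.62 in control LV, -0.53 to 0.72 in cortisol LV, -0.85 to 0.22 in control septum and -0.56 to 0.60 in cortisol septum, and ITGAM was not well above background on any array. T and NK cell markers, 2 of 14 measured (CD3D and CD3E), had an r of 0.37, and no natural killer marker was measured. Their level was -1.45 to 0.73 and -1.58 to 1.65 in control and cortisol LV, and -2.43 to 0.94 and -1.13 to 2.17 in septum, with the highest value in cortisol 3. The r was 0.48 for heart muscle (3 genes), 0.44 for neutrophil (2 of 8) and 0.28 for red cell markers (1 of 8). In LV of control 1, control 2, cortisol 1 and cortisol 2 the heart muscle level was MYH7 alone. List means were not recomputed without cortisol 3. For single genes without it, r was -0.10 for CD3D, 0.06 for CD3E, and 0.16 and 0.19 for the neutrophil genes BAC5 and CATHL3. It was 0.35 to 0.56 for the myeloid and 0.18 to 0.62 for the heart muscle genes. It was 0.28 for fibroblast (4 of 7) and 0.01 for endothelial markers (4 of 7). Of the endothelial markers, TIE1 had a negative r and PECAM1, KDR and TEK positive ones. The part of these cells in the NFIL3 values was not tested.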

How the data were processed

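Total RNA of 20 heart pieces was hybridised to 1-colour (Cy3) sheep arrays. The processed intensity was made with Agilent Feature Extraction 10.1.1.1, per the file headers, by background subtraction and detrending, and was not scaled between arrays. The authors' deposited table holds log2 values normalized apart by region, and NFIL3 has LV values only there. The submitters' processing notes also name limma, with no version.

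Here each array's processed intensity was taken to log2 and its 75th percentile over non-control spots subtracted, with outlier spots left out. Probes well above background on at least 5 of 10 (or 10 of 20) arrays entered limma 3.58.1 in R 4.3.3 with the package data.table (version 1.17.8). Tests were two-sided, with a threshold of 0.05 on the p adjusted by Benjamini and Hochberg's method across every probe tested. Names came from RefSeq assembly ARS-UI_Ramb_v3.0, older symbols and probe descriptions, in Python 3.11.15 (pandas 2.3.3, figures with matplotlib 3.10.9). Scripts were tested on simulated data.

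The LV and septum arrays that share a treatment and a number were taken as 1 lamb, because their residuals correlated (0.447 to 0.813) and each array's best match was its own partner in 10 of 10 lambs. Slide was not taken out of these residuals. Control and cortisol lambs of the same number had residual r of 0.07 to 0.29 in LV and 0.06 to 0.27 in septum. These r were above 0.1 in 4 of 5 in LV and 3 of 5 in septum. They were not compared with pairs of unlike numbers, so whether the numbers pair across treatments was not tested.

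NFIL3, the gene lists and tests were chosen with earlier results of these data known. Named genes are NFIL3, the 10 highest and 5 lowest r over 20 arrays (1 probe per gene, the brightest) and measured list members. A gene that the rule selects is not reported here. Alternatives were scaling, background, floor, filter, outlier spots, slide and replicate blocks, and leaving out lambs. The number of arrays limits the precision.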

Additional observations from a re-analysis of the deposited data

Results flagged for a closer look

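Groups of 5 (or 4) arrays of NFIL3 and of the other genes and markers given here were examined for 1 array far from the rest, by Dixon's test at 95%. Of 240 groups, 16 (6.67%) held such an array, where chance gives about 5%, and none of the 4 NFIL3 groups did. Values are log2 relative to the array's 75th percentile, with the nearest other array of the group beside each.

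In cortisol 3, which had the highest NFIL3 in both regions, LV values stood high for JAG1 (0.62, next -1.14), JUNB (1.75, next -1.13) and ZFP36 (4.33, next 2.22), and septum TIE1 stood low (-3.93, next -2.40).

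The other arrays were those of control 1 for BMAL1 (-0.99 in LV, next -0.17, and -1.11 in septum, next -0.26), NR3C1 (0.11 in septum, next -0.61) and NR3C2 (3.02 in septum, next 2.35). In cortisol 4, LV values stood apart for CRY1 (-1.56, next -0.19), HSP90AA1 (1.36, next 0.50) and MT3 (4.42, next 0.71). The rest were DBP in LV of cortisol 2 (-3.05, next -1.78), XBP1 in septum (2.49, next 1.93) and TYROBP in LV (-1.40, next -0.06) of cortisol 5, DDIT3 in LV of control 3 (-1.39, next -2.77) and CD3D in septum of control 5 (-6.79, next -4.31).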

How the results depend on the processing

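The LV difference was positive under 22 of 22 alternatives, and 0.57 with normexp background. Normexp without its offset was added after seeing the data. The septum difference was positive and missed the threshold under 23 of 23 (0.22 to 1.94, adjusted p 0.271 to 1.00), and 0 probes passed in septum under each. With a replicate block on the control and cortisol numbers, NFIL3 had ± 0.44 in LV and ± 0.36 in septum (adjusted p = 0.665), and no call changed. Leaving out 1 lamb gave 1.56 to 2.25 in LV, 0.76 to 1.55 in septum, 0.29 to 0.59 between regions and -0.92 to -0.32 for the difference of differences. With slide as a block the region difference took the other sign (-0.0198). The agreement of the regions lost its call with Spearman (0.576), normexp (0.028, and -0.277 with no offset), without the lambs farthest from the median (0.104), and without control 4 or cortisol 3 (range over lambs 0.558 to 0.825). Probes with r of at least 0.8 numbered 23, and 15 with the percentile of detected probes, 1154 with normexp (110 with no offset), 356 in septum alone, 73 over lamb means and 8 to 99 without 1 lamb. Probes passing between regions numbered 40, and 63 with quantile normalization, 1 with normexp (with or without offset), 106 with the floor, 99 with no filter, 79 with probes well above background on every array, 0 with the slide block, 1850 with the lamb block and 2 (without control 2, 3 or 4) to 289 (without cortisol 5) without 1 lamb. The causes were not tested. The authors' deposited table gave no septum value for NFIL3, and NFIL3 drops out of the filter for every array over both regions. Of 315 values of r for the other named genes, 27 moved by more than a fixed bound set for all genes. In each region 0 of the 532 cortisol differences of list genes moved by more than the SD within groups, a wide bound. Signs did change for some. DBP in LV kept its sign under 11 of 19 alternatives, HSPA5 in LV under 12 and DDIT3 in septum under 10. FOS kept its sign under 19 of 19 in both regions.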
